A study of Mus musculus with 6 samples.

Results

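The loci of Cdx1 and Cdx2 were examined in 6 lists of ATAC-seq peaks from mouse intestinal crypts, 3 from wild-type animals (WT) and 3 from animals with an induced deletion of Arid3a in the gut epithelium (cKO, conditional knockout). ATAC-seq finds open chromatin by the DNA that a transposase can reach, and crypts are the epithelial glands where intestinal stem cells divide. Peaks were taken whose summit, the point of highest signal, lay in either gene or within 50 kb of it. This gave 16, 25 and 24 peaks in the WT lists and 23, 24 and 23 peaks in the cKO lists, always in the order of replicates 1, 2 and 3, out of 40492 to 58297 peaks per list. Peaks of different lists that overlapped by at least 1 base were merged, which left 30 regions of 71286, 14 at Cdx1 and 16 at Cdx2. The cKO mice were VillinCre-ERT2; Arid3a fl/fl, in which the Villin promoter drives an inducible Cre recombinase in the epithelium of the intestine. Tamoxifen was given to WT and cKO mice alike, daily for 3 days, and crypts were taken 1 month after the first dose. Ages, sexes and the Cre status of the WT mice are not given in the sources used here. Nothing states what the replicate numbers stand for beyond separate samples, so that p-values measure only the spread between these samples.

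CDX1 and CDX2 are homeodomain transcription factors that set intestinal identity, and in the adult they are made by the epithelial cells of the gut. CDX2 drives genes of the absorptive and secretory lineages, and its loss gives intestinal cells features of the stomach. Cdx4, their paralogue, acts in the embryo and serves as a contrast. ARID3A is a transcription factor that binds A+T-rich DNA. Cdx1, Cdx2 and Cdx4 belong, with Pdx1 and the Gsx genes, to the ParaHox genes, and Pdx1 is the neighbour of Cdx2.

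To show the DNA behind the Cdx2 results, the sequence just upstream of the gene and the windows around the summits of 3 distal peaks are given below, from the GRCm38.p6 genome. Cdx2 (ENSMUSG00000029646.3) lies on the minus strand at chr5:147300805-147307270. The upstream stretch is the 250 bases before the annotated transcription start site (TSS), chr5:147307271-147307520, on the minus strand. The distal windows hold 100 bases on either side of the summit on the plus strand, at chr5:147299732-147299932, chr5:147292983-147293183 and chr5:147323520-147323720, all outside exons. They lie 7.44 kb and 14.2 kb downstream and 16.4 kb upstream of the TSS and are, with a peak in Pdx1 that is not printed, the highest in median rank by fold among the distal peaks of Cdx2. Capitals mark CpG dinucleotides.
Cdx2 upstream: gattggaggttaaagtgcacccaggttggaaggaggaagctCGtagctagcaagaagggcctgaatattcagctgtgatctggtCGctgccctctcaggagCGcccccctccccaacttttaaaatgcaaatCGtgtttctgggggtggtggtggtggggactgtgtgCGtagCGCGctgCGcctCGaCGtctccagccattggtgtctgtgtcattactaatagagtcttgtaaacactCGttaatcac
Cdx2 7.44 kb downstream: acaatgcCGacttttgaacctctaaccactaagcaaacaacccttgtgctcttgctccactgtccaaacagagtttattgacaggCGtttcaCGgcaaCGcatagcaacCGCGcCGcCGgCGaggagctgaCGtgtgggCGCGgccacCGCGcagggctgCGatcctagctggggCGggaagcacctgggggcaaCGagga
Cdx2 14.2 kb downstream: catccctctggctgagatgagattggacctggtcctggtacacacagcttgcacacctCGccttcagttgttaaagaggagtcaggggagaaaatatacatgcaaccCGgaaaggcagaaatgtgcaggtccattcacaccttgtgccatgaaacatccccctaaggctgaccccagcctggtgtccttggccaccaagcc
Cdx2 16.4 kb upstream: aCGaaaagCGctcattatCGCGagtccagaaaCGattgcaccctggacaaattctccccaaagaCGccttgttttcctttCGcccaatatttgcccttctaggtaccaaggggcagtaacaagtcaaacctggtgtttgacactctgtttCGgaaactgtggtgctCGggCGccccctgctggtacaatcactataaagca
The upstream stretch held 11 CpG, against a median of 8 in the same stretch of 21938 protein-coding genes. The window 7.44 kb downstream held 17 and the window 16.4 kb upstream held 10, against a median of 3 over the 71286 merged peaks. The window 14.2 kb downstream held 2. CpG density differed widely between peaks of the same locus.

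Both loci were densely covered with peaks in WT and cKO lists. In the Cdx1 window 7, 11 and 11 peaks were called in the WT lists and 12, 11 and 11 in the cKO lists. In the Cdx2 window there were 9, 14 and 13 in the WT lists and 11, 13 and 12 in the cKO lists. Cdx1 (ENSMUSG00000024619.8), on the minus strand at 61018862 to 61036199 of chromosome 18, thus had 9.67 ± 2.31 peaks in WT and 11.3 ± 0.577 in cKO lists (SD, n = 3; exact two-sided permutation test, p = 0.6). Cdx2 had 12 ± 2.65 and 12 ± 1 (SD, n = 3; exact permutation test, p = 1). WT 1, the shortest list, was lowest at both loci, and the groups overlapped. The median over lists was 11 at Cdx1 and 12.5 at Cdx2, against a median of 5 over 21938 protein-coding genes with the same flanks, of which 87.0% and 91.5% had no more peaks than Cdx1 and Cdx2. Cdx4 had 2 or 3 peaks per list, and 30.9% of genes had no more than its median of 2. Of the merged regions, 7 of 14 at Cdx1 and 9 of 16 at Cdx2 were called in all 6 lists, against 32748 of all 71286. No region at either locus was called in 3 cKO and 0 WT lists or the reverse, which held for 0.464% and 0.111% of all merged regions.

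**Figure D1:**
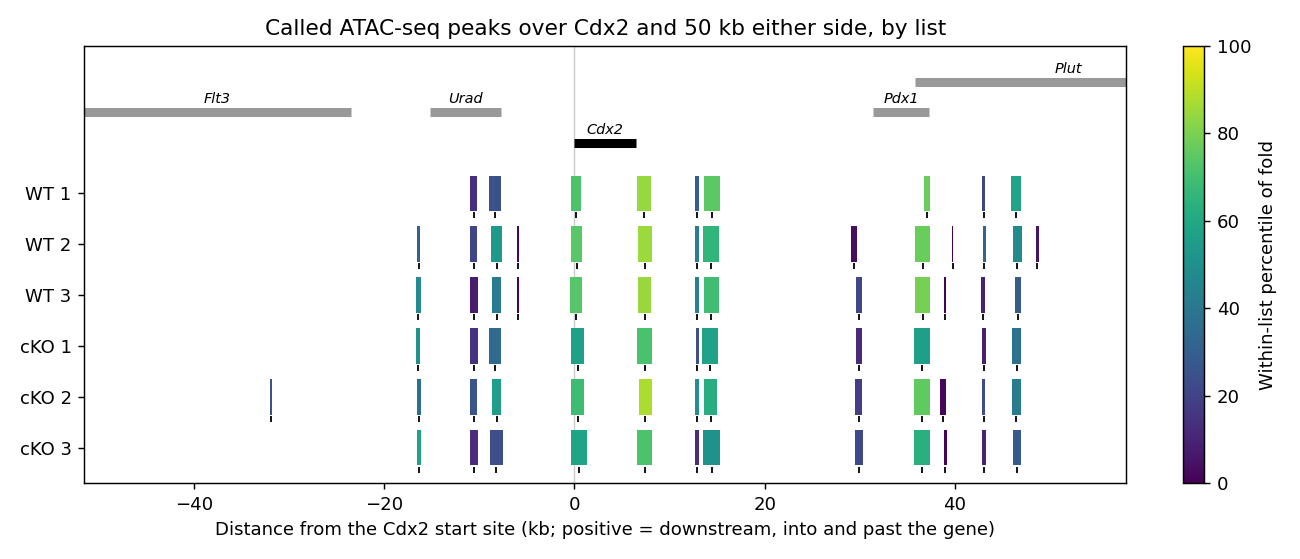
Peaks called over Cdx2 and 50 kb on either side, 1 row per list, against distance from the Cdx2 start site in kb, with genes drawn as bars above. Colour gives the percentile of a peak's fold within its list, and the same 9 peaks recur in all 6 rows, with the brightest at the start site, just past the 3′ end of Cdx2 at 7.44 kb, at 14.2 kb and at the Pdx1 start site at 37.1 kb.

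**Figure D2:**
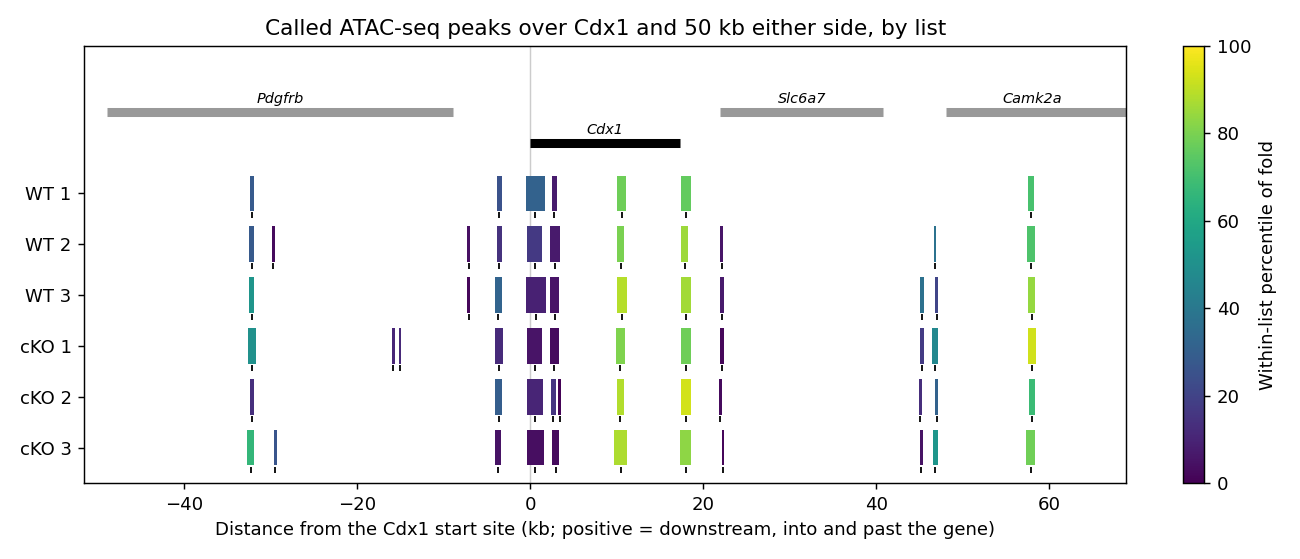
Peaks called over Cdx1 and 50 kb on either side, drawn in the same way. The peak over the start site is dark in all 6 rows, and the bright peaks lie in the gene at 10.5 kb, just past its 3′ end at 17.9 kb and in Camk2a at 57.7 kb.

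The strength of a peak was read from its fold, the pileup of reads or fragments at the summit divided by the local background, each with 1 added. Folds depend on depth, so each was turned into its percentile among all peaks of its own list, where 100 is the strongest. A peak whose summit lay from 1000 bp upstream to 100 bp downstream of a TSS was called a promoter peak. By this rule Cdx2 had a promoter peak in 6 of 6 lists, with a median summit 13 bp downstream of the TSS in the 5′ untranslated region. Cdx1 had none in any list, because its summits lay 256 to 1029 bp downstream, with the median summit in coding sequence. A peak covered the Cdx1 TSS in all 6 lists (61034412 to 61036625 of chromosome 18), and Cdx1 is described by that peak, a choice made after the lists had been seen.

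The Cdx2 promoter peak (chr5:147305989-147307712) ranked above the middle of every list but below the typical promoter peak. Over protein-coding genes with a promoter peak in all 6 lists, the list medians were 84.1 to 87.7. Its percentile was 71.6, 74.2 and 73.4 in the WT lists and 57.4, 69.1 and 58.3 in the cKO lists. All cKO values lay below all WT values, and the means were 73.1 ± 1.34 in WT and 61.6 ± 6.52 in cKO lists (SD, n = 3). The difference, cKO minus WT, was −11.4 percentile points (exact permutation test, p = 0.1, the smallest that 3 against 3 samples allow). With all lists cut to the same length it was −17.6 and the groups overlapped (exact permutation test, p = 0.2). Of 9777 protein-coding genes with a promoter peak in all 6 lists, 9.66% were lower in cKO without overlap and 2.89% were higher, and the median difference over these genes was −1.48. In bulk samples of crypts, fewer cells with an open site and less signal per cell cannot be told apart. The order did not hold for other measures of the same peak. Ranked by −log10 q, the difference was 0.713 (exact permutation test, p = 0.8), and ranked by pileup it was 1.68 (exact permutation test, p = 0.4).

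The pileup and local background of the Cdx2 promoter peak were therefore set side by side. The pileup was 92, 155 and 219 in the WT lists and 287, 119 and 217 in the cKO lists. Within its list this was the 91.7th, 93.1st and 95.7th percentile in WT and the 96.4th, 92.0th and 97.2nd in cKO lists. The local background was 5.60, 8.55 and 11.6 times the commonest background of the list in WT and 17.7, 8.0 and 14.6 times in cKO lists. The highest ratios were in cKO 1 and cKO 3, the lists with the lowest percentiles by fold. Over all peaks of a list the median ratio was 2.12 to 2.70. The means, 8.59 ± 3.01 and 13.4 ± 4.94 (SD, n = 3), overlapped between groups (exact permutation test, p = 0.3). The part of the local background in the lower rank by fold was not tested.

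The Cdx2 promoter peak was also longer in the cKO lists. It spanned 1014, 1183 and 1269 bp in the WT lists and 1422, 1388 and 1633 bp in the cKO lists, and the groups did not overlap. The mean was 1155 ± 130 bp in WT and 1481 ± 133 bp in cKO (SD, n = 3; exact permutation test, p = 0.1). Widths were compared after peak positions had been seen. Of the 9777 promoters, 11.9% were wider in all cKO than in all WT lists. The median promoter peak was 1091, 1093 and 1159 bp in WT and 1228, 1102 and 1221 bp in cKO lists, longest in cKO 1 and cKO 3.

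The peak over the Cdx1 TSS ranked far lower than that of Cdx2 by fold. Its percentile was 30.9, 16.6 and 9.24 in the WT lists and 5.37, 10.5 and 3.68 in the cKO lists. WT 3 fell within the range of the cKO lists, so that the groups overlapped. The means were 18.9 ± 11.0 and 6.53 ± 3.57 (SD, n = 3), a difference of −12.4 percentile points (exact permutation test, p = 0.2). Without WT 1, the highest list, it was −6.37, and with a −log10 q minimum of 5 it was −4.13 without overlap (exact permutation test, p = 0.1). Of 12304 protein-coding genes with a peak over a TSS in all lists, 9.22% were lower in cKO without overlap. By pileup the Cdx1 peak stood between the 65.4th and 75.3rd percentile and the difference was 1.47 (exact permutation test, p = 0.7). Its pileup was 46, 52 and 67 in WT and 105, 44 and 72 in cKO lists, over a local background 4.83 to 15.3 times the commonest of the list. A low percentile by fold at Cdx1 therefore went with a pileup above that of most peaks.

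In every list the Cdx2 start site outranked that of Cdx1. The Cdx2 peak was higher by 40.7, 57.6 and 64.2 percentile points in the WT lists and by 52.0, 58.6 and 54.6 in the cKO lists. The mean difference was 54.6 (exact sign-flip permutation test over 6 samples, p = 0.031, the smallest possible, and 0.094 after Benjamini-Hochberg adjustment over 9 tests). By pileup it was 24.8, again higher at Cdx2 in 6 of 6 lists (exact sign-flip permutation test, p = 0.031). The TSS surroundings also differed in sequence. From 250 bp before to 250 bp after the TSS, the observed over expected CpG ratio was 0.886 at Cdx1, 0.616 at Cdx2 and 0.461 at Cdx4, against a median of 0.586 over 21938 genes, and A+T made up 24.95%, 40.5% and 48.5%.

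**Figure D3:**
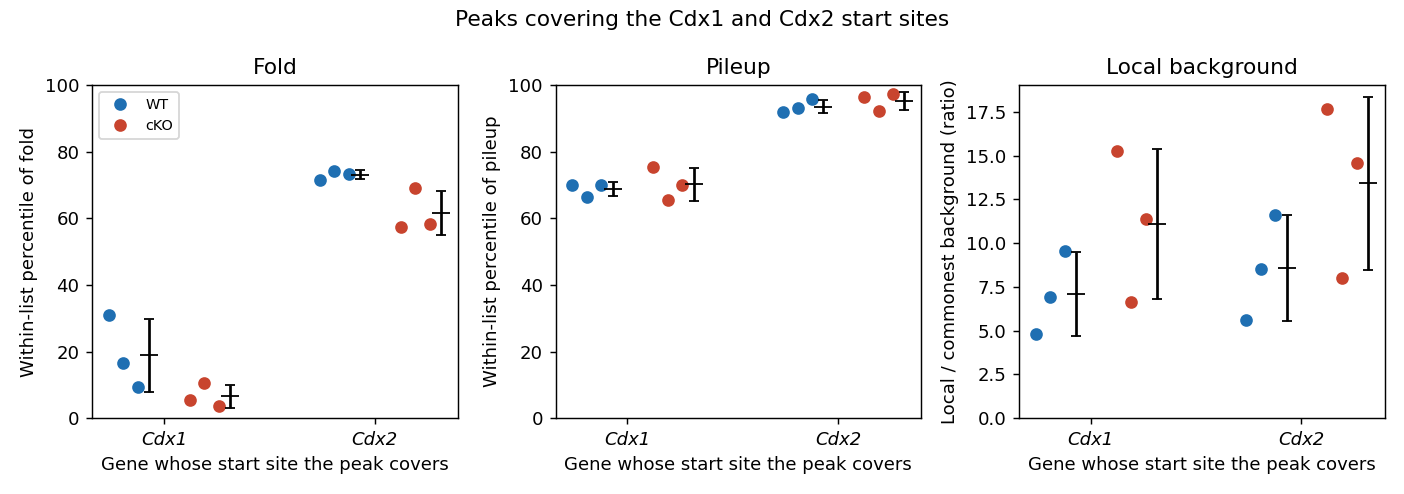
Values of the peaks over the Cdx1 and Cdx2 start sites in each list (points; WT and cKO, 3 lists each), with mean and SD, as percentile of fold, percentile of pileup and local background as a ratio to the commonest background of the list. Cdx2 stands above Cdx1 in the left and middle panels, and the separation of WT from cKO at Cdx2 is seen in the fold panel alone.

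Promoter and distal peaks were then compared within each locus. Distal peaks were those outside the promoter of any gene, and each list was given the median percentile of the distal peaks called in all 6 lists. At Cdx2 this median was 44.1, 50.7 and 42.1 in the WT lists and 36.0, 52.5 and 25.7 in the cKO lists, with overlap between groups (45.6 ± 4.48 against 38.1 ± 13.5, SD, n = 3; exact permutation test, p = 0.5). The peak over the Pdx1 TSS counted as distal by this rule, since its summit lay beyond the promoter limits. With peaks that cover a TSS left out, the cKO minus WT difference went from −7.56 to −3.36 (exact permutation test, p = 0.8). The promoter peak of Cdx2 exceeded the distal median by 16.6 to 32.6 percentile points, higher in 6 of 6 lists (mean 25.5; exact sign-flip permutation test, p = 0.031, adjusted 0.094). Promoter peaks in general also ranked high by fold, with list medians of 84.1 to 87.7. At Cdx1 the median was 30.9, 28.1 and 52.3 in WT and 50.2, 29.6 and 66.3 in cKO lists (37.1 ± 13.3 against 48.7 ± 18.4, SD, n = 3; exact permutation test, p = 0.6), counting the peak over its TSS as distal. The difference of 11.6 became 5.75 with peaks over a TSS left out. With that peak taken as the promoter instead, it lay below the distal median by 18.6 to 68.5 percentile points in 6 of 6 lists (mean difference, promoter minus distal, −46.1; exact sign-flip permutation test, p = 0.031, adjusted 0.094). Ranked by −log10 q this mean was −15.9 (exact sign-flip permutation test, p = 0.031). By pileup it was 1.19 (exact sign-flip permutation test, p = 0.53125), so the order at Cdx1 did not hold by pileup.

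The strongest peaks of Cdx1 lay inside and beyond the gene. The peak 17.9 kb from the TSS, 608 bp past the 3′ end, had percentiles of 75.9, 85.3 and 86.1 in the WT lists and 77.9, 93.2 and 83.1 in the cKO lists. The peak at 10.5 kb, in an intron, had 77.8, 80.1 and 88.9 in WT and 80.7, 88.5 and 87.6 in cKO lists. The peak at 57.7 kb, in an intron of Camk2a, which encodes a calcium-dependent protein kinase of neurons, had 70.7, 72.2 and 84.2 in WT and 92.9, 68.2 and 78.2 in cKO lists. Groups overlapped for all 3. The intronic peak at 2.80 kb ranked at 3.01 to 15.5 and the peak 3.53 kb upstream at 4.94 to 31.8 by fold, while by pileup they stood between the 52.5th and 74.5th percentile. The peak 32.3 kb upstream, in an intron of the PDGF receptor gene Pdgfrb, ranged from 13.6 to 66.3. A peak at 22.1 kb, called in 5 lists, stayed at or below the 6.86th percentile. In 4 of them, all but cKO 3, it covered the TSS of the transporter gene Slc6a7. Peaks at 46.9 and 45.3 kb, called in 5 and 4 lists, ranged from 20.4 to 52.6 and from 5.07 to 37.1.

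At Cdx2 the strongest distal peak lay 7.44 kb from the TSS, 973 bp past the 3′ end, in the CpG-rich window printed above. Its percentile was 84.1, 84.8 and 84.6 in the WT lists and 71.4, 87.7 and 71.5 in the cKO lists. The WT values were close together, and cKO 2 lay above them while cKO 1 and 3 lay below. The peak at 14.2 kb had 74.7, 65.5 and 69.4 in WT and 57.5, 62.3 and 51.1 in cKO lists, without overlap. The peak at 37.1 kb covers the TSS of Pdx1, the regulator of pancreas and duodenum, and had 77.2, 77.3 and 79.0 in WT and 55.9, 75.6 and 63.6 in cKO lists, again without overlap. A summit within 1500 bp past the 3′ end in all 6 lists was found at Cdx1, Cdx2 and Cdx4, and at 4.57% of 21938 protein-coding genes. That distance was chosen after the positions had been seen, and within 1000 bp the condition held for Cdx1 and Cdx4 but not for Cdx2, and for 2.72% of genes. The lower peaks of Cdx2 were at 12.9 kb (12.7 to 49.4), at 43.1 and 46.6 kb in introns of the long non-coding gene Plut (9.16 to 31.7 and 27.9 to 59.2), and at 8.21 and 10.7 kb upstream in introns of Urad (23.5 to 55.6 and 7.59 to 26.0). Another 2 peaks were called in every list but WT 1. That 16.4 kb upstream had 30.3 and 47.3 in WT 2 and WT 3 and 50.5, 36.6 and 58.1 in cKO lists. That at 29.9 kb ranged from 3.84 to 22.0.

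Over both loci, 3 of the 16 peaks called in all 6 lists were lower in all cKO than in all WT lists by percentile of fold, all at Cdx2: the promoter peak, the 14.2 kb peak and the Pdx1 peak. None was higher. Of 32748 merged peaks called in 6 lists, 7.04% were lower and 4.66% higher without overlap. At Cdx2 the mean was lower in cKO for 8 of 9 shared peaks, with a median difference of −9.13, and at Cdx1 for 2 of 7, with a median difference of 2.32. Over all shared peaks the mean was lower in cKO for 50.7%, and the median difference was −0.0947. By percentile of pileup the count turned: 4 of the 16 were higher in all cKO lists and 0 lower, against 6.44% and 1.40% of all shared peaks. These 4 were the 2.80 and 17.9 kb peaks of Cdx1 and the peaks 8.21 and 10.7 kb upstream of Cdx2, and none of them was among the 3. The mean by pileup was lower in cKO for 2 of 9 shared peaks at Cdx2 and 0 of 7 at Cdx1. The local background at the 16 peaks was 2.07 to 17.7 times the commonest of the list.

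**Figure D4:**
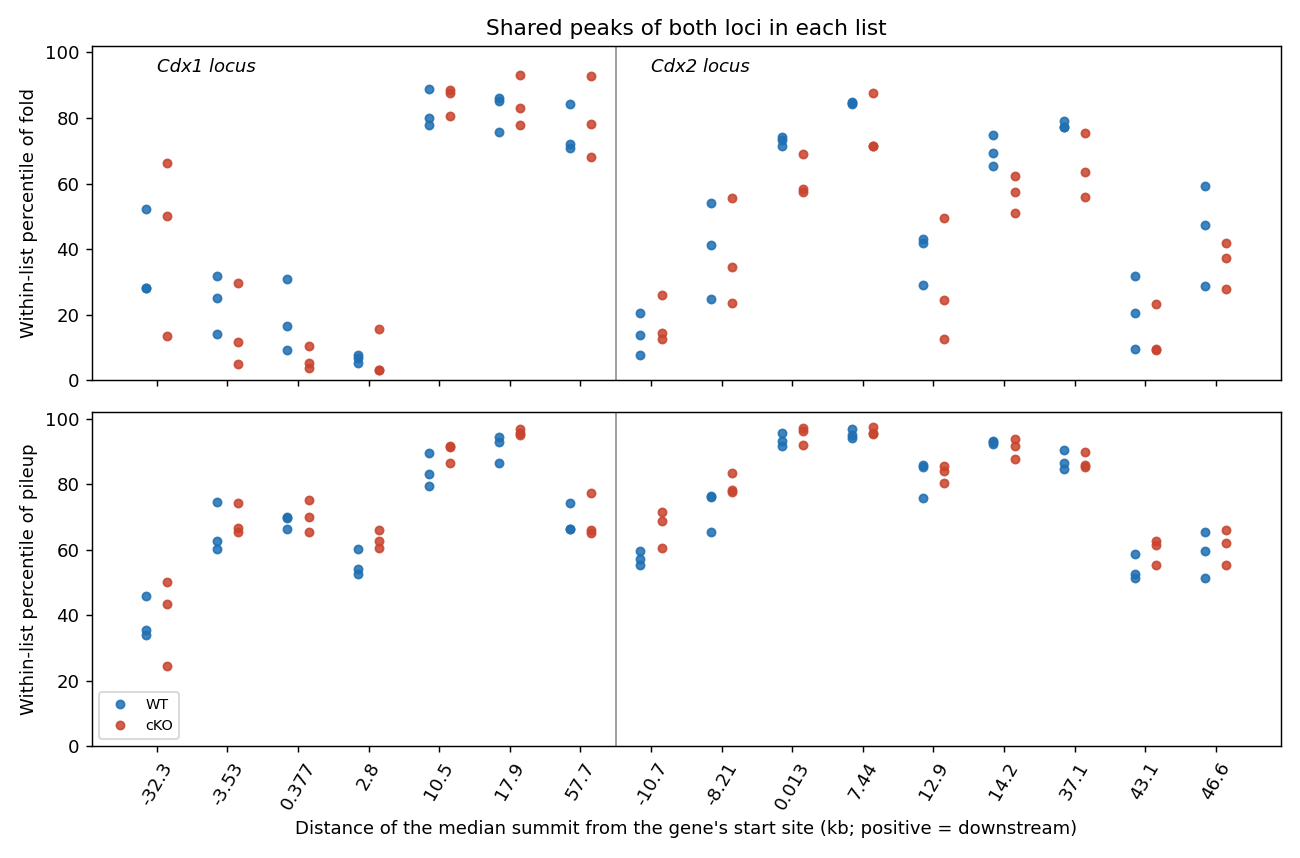
Percentile of fold (upper panel) and of pileup (lower panel) in each list for the 7 peaks of Cdx1 and 9 of Cdx2 called in all 6 lists, ordered by distance from the start site in kb. In the upper panel the Cdx2 peaks at 0.013, 14.2 and 37.1 kb have all cKO points below all WT points, and in the lower panel those points overlap.

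At Cdx4, in contrast, no peak covered the TSS in any list. The 2 regions in its window called in all lists were a peak 775 bp past its 3′ end, with percentiles of 52.9, 51.9 and 78.5 in the WT lists and 79.4, 19.4 and 61.3 in the cKO lists, and a peak over the TSS of the neighbour Chic1. The local background there was at most 1.42 times the commonest of the list, and the former peak had a pileup of only 10 to 35. By fold it ranked above the Cdx2 promoter in WT 3, cKO 1 and cKO 3, and by pileup it stood at or below the 42.1st percentile in all lists. At the 16 peaks of Cdx1 and Cdx2 called in all lists, pileups were 17 to 311 and the local background was at least 2.07 times the commonest.

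Consensus motifs were sought on either strand, without mismatch, within 100 bp of the summits of the 21 regions at both loci called in at least 4 lists. The CDX motif (TTTATGNC or TTTATTNC) occurred in 2 regions, both at Cdx1, 17.9 kb downstream and 3.53 kb upstream, and in 7.89% of all merged peaks. The ARID3 motif (ATCAAA or ATTAAA) occurred in 1 region, 10.7 kb upstream of Cdx2, and in 16.0% of all peaks. The AP-1 motif (TGANTCA) occurred in 1, 8.21 kb upstream of Cdx2, and in 10.4%. The motif AGATAA, bound by GATA factors, occurred in 0 regions and in 12.7% of all peaks. The HNF4 motif (CAAAGTNCA) occurred in 0 regions and in 3.48%. The TCF motif ATCAAAG, which contains a match to ARID3, occurred in 0 and in 3.51%. All merged peaks include those called in fewer than 4 lists. Over peaks called in 6 lists the shares were 7.62% (CDX), 12.5% (ARID3), 10.3% (AP-1), 11.2% (GATA), 3.55% (HNF4) and 2.97% (TCF). The 4 sequences printed above held none of the 6 motifs, and a motif was found in the same upstream stretch of 34.1% of genes. Median A+T was 46.3% at Cdx1 and 43.8% at Cdx2, against 48.8% over all merged peaks.

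Other genes of intestinal identity were compared at the peak over their TSS. Among ParaHox genes, Gsx1, Pdx1, Cdx1 and Cdx2 had one in 6 lists and Gsx2 and Cdx4 in 0. Over all 21938 protein-coding genes, 12304 had such a peak in 6 lists. All 12 intestinal transcription factor genes had one in 6 lists. Of these, 2 were lower in cKO without overlap, Gata6 (−15.9) and Isx, a regulator of vitamin A uptake (−12.2), and 0 were higher. The median difference was −9.79. Of all 12304 genes with a peak over a TSS in 6 lists, 9.22% were lower without overlap, and the median difference was −1.28. Of 8 genes known as CDX targets, Cdh17, Gucy2c, Vil1 and Mep1a had a peak in 6 lists, the sucrase gene Sis in 5 and Lct, Muc2 and Car1 in 0. The groups overlapped for all 4, and the median difference was −1.91. By root-mean-square difference over the 6 lists, the promoters most like Cdx2 among 9777 were those of Nrip1 (2.02 percentile points), Erbin (2.13) and Ptpn21 (2.16). Most like Cdx1 among 12304 genes with a peak over the TSS were Pfn1 (2.98), Zfp503 (3.82) and Hist1h3i (4.15), a histone gene with near-identical copies.

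Markers of cell types and the coverage of the lists were read in the same way. A peak covered a TSS in 6 lists at 12304 of 21938 protein-coding genes. Of 10 crypt and epithelial genes 9 had a peak over the TSS in 6 lists and Krt20 in 1. Of the 9, the stem cell gene Axin2 (−13.6) and the epithelial adhesion gene Epcam (−13.0) were lower in cKO without overlap, and the median difference was −8.06. Over the 12304 genes, 9.22% were lower without overlap and the median difference was −1.28. Groups overlapped at the stem cell genes Lgr5 (0.628), Olfm4 (−2.14), Ascl2 (−2.04) and Smoc2 (−12.2). Peaks covered the TSS in 6 lists at 0 of 6 immune genes and at 2 of 6 genes of mesenchyme and endothelium, Col1a1 and Pdgfra, whose groups overlapped, whose median percentiles were 74.4 and 80.8 and whose median difference was 0.639. The part of cell composition in the results was not tested. A peak covered the Arid3a TSS in 6 lists, with a difference of −11.1 and overlap between groups, and it does not check the deletion, whose position is not given in the sources used here. The commonest background, a measure of coverage, was 1.82 to 2.11 per base over the WT lists and 1.75 to 2.29 over the cKO lists.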

How the data were processed

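The authors isolated nuclei from single cells of crypts and made ATAC-seq libraries by Tn5 tagmentation and PCR. Reads were trimmed with Trim Galore, aligned to GRCm38 with BWA and filtered by a blacklist within an nf-core pipeline, and narrow peaks were called by the authors with MACS in each sample. No input control is stated, so that background came from the library itself. The lists deposited by the authors give for each peak a fold (a ratio of pileup to local background), −log10 p, −log10 q, a score and the summit offset. The score and the peaks off the chromosomes (61 to 92 per list) were not used.

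Pileup and background were recovered from fold and −log10 p. A whole pileup, within 0.05, was found for 100% of peaks. Total read numbers were not used here. Genes came from GENCODE M21. Python 3.11.15, numpy 2.4.6, pandas 2.3.3 and scipy 1.17.1 were used, and the steps were tested on simulated data.

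Group means were compared by exact two-sided permutation tests and differences within a list by exact sign-flip tests. The promoter rule gave Cdx1 no peak, so tests at the Cdx1 start site used the peak covering the TSS instead. That definition was a listed alternative, but its use for the Cdx1 results was decided after the lists had been seen. Other alternatives were −log10 q of at least 5, equal list length, ranks of −log10 q and pileup, windows of 25 and 100 kb, merging by summits, a summit within 500 bp, a replicate block, leaving out each sample, and ranks within promoter or other peaks, chosen after seeing the data. Named were the members, Cdx4, the listed genes, the 3 genes most like each member and regions called in at least 4 lists. The members and lists were chosen with earlier results of these data known.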

Additional observations from a re-analysis of the deposited data

How the results depend on the processing

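Of the values recomputed under the alternatives, 10 changed sign, 18 were no longer past the threshold, 8 moved beyond the allowed range and 111 did none of these, among them counts that have no test and the Cdx2 peak number, whose difference of 0 has no direction. The 18 were all sign-flip tests with a sample left out, where the smallest p of 0.0625 cannot pass the threshold of 0.05. Comparisons between groups cannot give a p below 0.1, so they could only change sign. The counts therefore do not measure how firm the results are. The lower rank of the Cdx2 promoter in cKO lists did not hold for ranks other than by fold. Ranked by −log10 q, cKO minus WT was 0.713 at the Cdx2 promoter, −0.373 at the Cdx1 distal peaks and 1.04 at the Cdx2 distal peaks, where ranks by fold gave −11.4, 11.6 and −7.56. Ranked by pileup, the values were 1.68, −0.0369 and 4.04, and 1.47 at the peak over the Cdx1 start site (−12.4 by fold), while its difference from the distal peaks became 1.19. Ranked by −log10 q, these Cdx1 start-site values were −6.94 and −15.9, with the same sign as by fold. The Cdx1 distal value was also −2.01 with −log10 q of at least 5 and −10.97 in windows of 25 kb. The count of shared peaks lower in cKO was 3, but 0 with lists of equal length, 0 by −log10 q with 1 higher, and 0 by pileup with 4 higher. The cause was not tested.

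Without each sample in turn, the count lower in cKO ranged from 3 to 9, with 9 without cKO 2 and 5 without WT 3, and the count higher from 0 to 1. Groups of 3 and 2 samples separate more readily than groups of 3 and 3. The share over all merged peaks was not computed with a sample left out, so these counts have no baseline. Promoter minus distal ranged from 24.0 to 27.7 at Cdx2 and from −48.6 to −38.4 at Cdx1, and Cdx2 minus Cdx1 from 52.7 to 57.4, where the smallest exact p with 5 samples is 0.0625. The differences between groups varied more: −15.2 to −9.35 at the Cdx2 promoter, −17.2 (without WT 3) to −6.37 (without WT 1) at the Cdx1 start site, 2.77 (without cKO 3) to 21.1 (without cKO 2) at the Cdx1 distal peaks, −14.8 (without cKO 2) to −1.37 (without cKO 3) at the Cdx2 distal peaks, 0.333 (without WT 1) to 2.33 in peak number at Cdx1 and −1.5 to 1 at Cdx2. With the replicate block, the Cdx2 promoter difference of −11.4 had an exact permutation p of 0.25, the smallest that this design allows, so that the block could not change a call. Same-numbered samples did not deviate together in every pair (r over 32748 shared peaks −0.298, −0.0284 and 0.134). With 3 samples per group this cannot decide whether the numbers pair the samples. The summit rule of 500 bp gave no value for Cdx1. The lists hold peaks past the caller's threshold only, and a missing call is not absence of signal.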

Other observations

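Regions called in 1 to 3 lists were weak by fold. At Cdx1 these were 4 of 14 regions, 6.99, 15.1, 15.9 and 29.6 kb upstream of the start site, with percentiles by fold from 1.83 to 26.5. At Cdx2 they were 5 of 16, and the 39.0 and 39.7 kb regions near Pdx1 stayed at or below the 1.71st percentile over local backgrounds 5.62 to 10.2 times the commonest of the list. By pileup the 39.0 and 39.7 kb regions stood between the 45.5th and 59.7th percentile. The region 5.87 kb upstream of Cdx2 stood at 49.5 and 54.0 by pileup.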
